A study of Mus musculus with 9 samples.

Results

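The clustered protocadherins are 57 protein-coding mouse genes on chromosome 18, taken from the 54232 genes of the count files by their symbols in the GENCODE M21 annotation. The alpha cluster held 14 members (Pcdha and Pcdhac symbols), the beta cluster 22 (Pcdhb) and the gamma cluster 21 (Pcdhga, Pcdhgb and Pcdhgc). They were measured by RNA sequencing in 9 libraries of cortical neurons from wildtype CD1 mice, an outbred stock. Their titles name 3 groups, control, PA and PA + PS2, with repeats 1 to 3 in each. PA is a peptide amphiphile, a peptide carrying a fatty tail that assembles into fibres, and the PA libraries carry the name IKVAV, a laminin sequence that cells bind. The PA + PS2 libraries carry the name IKVAV plus PEDOT-S-OH, PEDOT being a conducting polymer, and the control libraries carry the name PDL, which the labels do not spell out. The treatment label reads peptide amphiphile in all 9 libraries, controls included, so groups follow the titles. The labels give no age of the animals, no time in culture and no amount, and nothing in them tells separate cultures from technical repeats. The p-values therefore measure only the spread between these libraries, which may be technical.

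Clustered protocadherins are cadherin-like cell surface proteins that bind the same isoform on a facing membrane. Each alpha and gamma isoform is made from its own large first exon, which encodes the ectodomain and membrane span, spliced to short constant exons that the whole cluster shares, whereas each beta gene is a single exon with no constant part. A single neuron switches on a small, largely random set of the alternate isoforms, by promoter choice that involves CTCF and cohesin, and most neurons use the C-type isoforms at the ends of the alpha and gamma clusters more uniformly. The resulting combinations let branches of the same neuron recognise and avoid each other. Bulk libraries such as these average over many neurons, and in them more cells using an isoform and more RNA per cell cannot be told apart.

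Total counts ran from 20746851 to 27237398 per library, and 18535 to 25490 of them, or 0.0888% to 0.0943%, fell on the members. Summed levels of 8 general neuron markers lay between 6257 and 7473 CPM (read counts scaled to the same library size for all libraries) in the 9 libraries, so the labelled cell type was present throughout. Markers of other cell types were also detected. The 8 fibroblast and mural cell markers summed to 130 to 180 CPM in control, 82.0 to 141 in PA and 11.5 to 52.6 in PA + PS2, and the 7 progenitor and dividing cell markers to 159 to 323, 205 to 284 and 128 to 152 CPM. In the PA + PS2 comparison with control, 0 of the 7 tested fibroblast and mural cell markers passed the test described below, nor did any of the 7 progenitor or the 7 oligodendrocyte lineage markers. With the repeat number as a block, 4, 4 and 3 of them passed, all lower in PA + PS2, beside 1.17% of all genes. Without the block, the median log2 fold changes of the 3 lists were -1.70, -0.91 and -1.43. Cldn5 of the endothelial list was at 0 in 8 libraries and P2ry12 of the microglial list in 7. Pecam1, Kdr and Flt1 of the first list had counts in all 9 libraries. So did Cx3cr1, C1qa, Csf1r and Aif1 of the second. The endothelial markers summed to 1.99 to 8.65 CPM and the microglial ones to 3.00 to 7.21 CPM, so both were low but detected. PA repeat 2 had the most genes with a count, 24702, against 22064 to 23223 in the other libraries.

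The members stand in 3 blocks within 912 kb of chromosome 18 (build mm10). The alpha cluster spans 36930184 to 37187661, the beta cluster 37264938 to 37524479 and the gamma cluster 37661793 to 37841873. How much of each member could be counted differed by cluster. Of the 22 beta members, 19 had all their exon bases free of other genes. Every alpha member had 48.6% to 93% of its exon bases inside exons of another gene, with a median of 53.6%, and every gamma member 31.5% to 100%, with a median of 45.2%. The constant exons account for most of this: 2860 bp in most alpha members and 2119 bp in most gamma members. The annotated genes Gm37013, Gm37388, Gm38182, Gm42416 and Pcdhgb8 also contain gamma constant exons.

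Reads in shared sequence appeared to be left out of the counts, on both strands. Among 26 protein-coding genes of the genome that had no exon base free on either strand but at least 500 bp free on their own strand, 24 had 0 counts in all 9 libraries. The share was 17.7% among the 21201 protein-coding genes with at least 500 bp free on both strands. Genes on the opposite strand covered exon bases of 4 alpha, 1 beta and 8 gamma members. Levels are therefore given as CPM per kb of exon sequence that no other gene covers (CPM per kb), and CPM without a length is used to compare a gene or a sum between libraries.

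**Figure D1:**
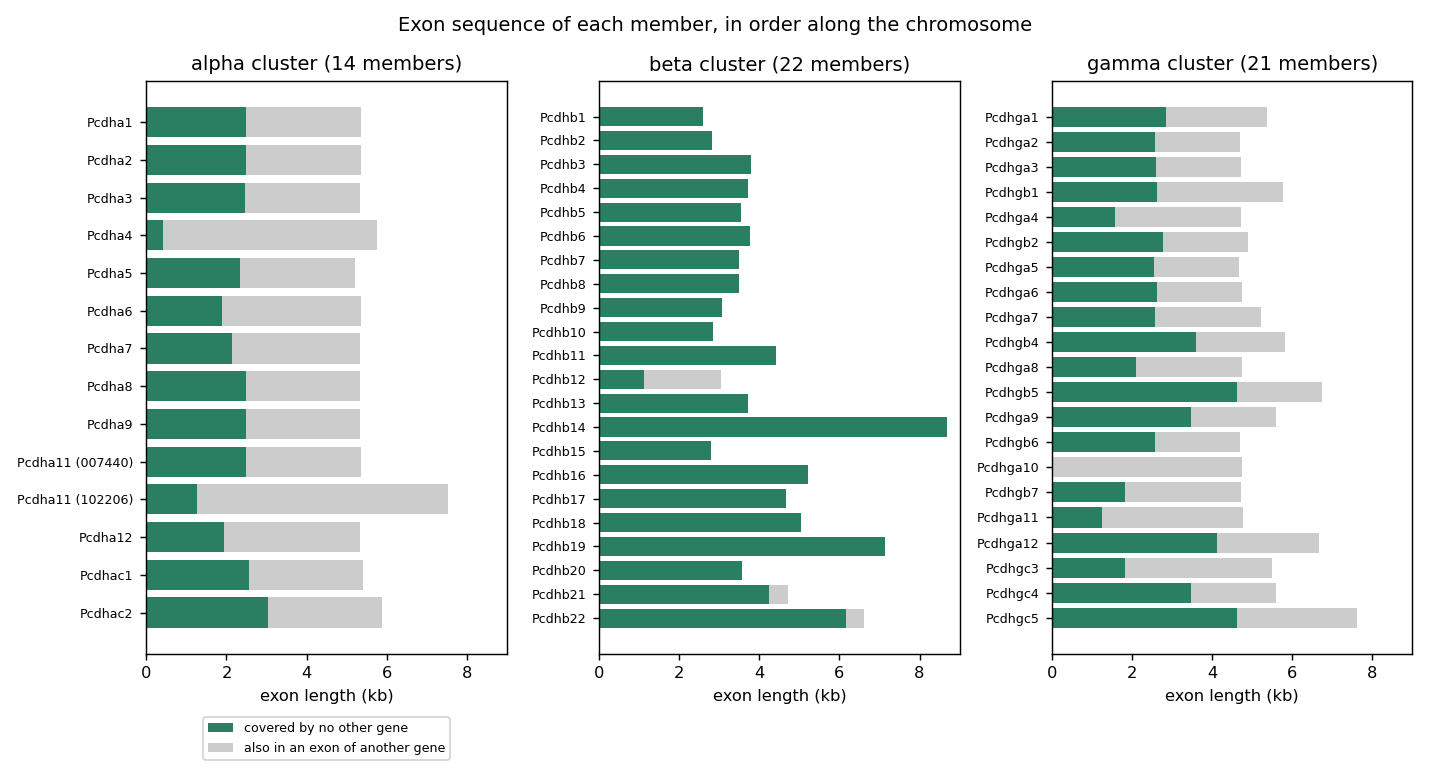
Exon length in kb of the 57 members, in chromosome order, split into sequence that no other gene covers (green) and sequence inside an exon of another gene (grey). Most beta bars are green over their whole length, alpha and gamma bars carry a grey part throughout, and Pcdhga10 is grey over its whole length.

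Of the 57 members, 53 had enough reads to be tested and 4 did not. Pcdhga10 had 0 counts in every library. It has no free exon base, because the antisense gene Gm26672 covers its 2613 bp first exon and the rest is constant, so its 0 says nothing about its expression; 3 counts would be 0.113 to 0.144 CPM in these libraries. Pcdha4 had 29 counts in total over 404 free bp, with most of its own exon under Gm42416. The gene ENSMUSG00000102206, one of a pair that share the symbol Pcdha11, had 20 counts over 1268 free bp. Pcdhb1 is different, since all of its 2588 bp is free: it had 60 counts in the 9 libraries, a mean of 0.110 CPM per kb, the lowest of the beta cluster. The other gene of that pair, ENSMUSG00000007440, was tested and stood at 4.17 CPM per kb; the RefSeq table names the gene at its position Pcdha10. Pcdhgb8, annotated as a polymorphic pseudogene, was not a member.

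First exons within a cluster resemble each other, which bears on where a read can be placed. The median identity between first exons was 77.3% over 91 alpha pairs, 75.2% over 231 beta pairs and 63.9% over 210 gamma pairs. The most alike were Pcdhb11 and Pcdhb12, at 87.2%, followed by pairs such as Pcdhb7 and Pcdhb9 at 86.9% and Pcdha7 and Pcdha8 at 84.2%. Stretches of 50 bp found in another member made up 23.4% of the first exon of Pcdha7, 12% of that of Pcdhb12 and 17.2% of that of Pcdhgb2. How the authors treated reads with several matches is not given in the sources used here, so counts of members with like sequence are uncertain by an amount that was not measured.

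Within each cluster, the same member led in all 9 libraries. Pcdhac2, a C-type isoform known for its role in the spacing of serotonergic axons, led the alpha cluster with 16.9 CPM per kb over the 9 libraries. It stood at 58.4, 43.9 and 47.5 CPM in control repeats 1, 2 and 3, at 60.8, 45.6 and 55.9 CPM in PA, and at 48.8, 48.5 and 50.3 CPM in PA + PS2. The 3 groups overlapped, and repeat 2 was the lowest within each. Pcdhac2 made up 22.9% to 28% of the alpha level per kb in each library. Pcdhac1, the other alpha C-type isoform, was about as low as the alpha cluster went among tested members, at 0.561 CPM per kb. Its libraries read 0.903, 1.61 and 1.66 CPM in control, 1.12, 1.55 and 1.80 CPM in PA and 1.78, 1.04 and 1.45 CPM in PA + PS2, again with full overlap. Both alpha C-type first exons share no stretch of 50 bp with another member, unlike the 12 alternate alpha isoforms.

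Pcdha12, Pcdha3 and Pcdha5 were the highest alternate alpha isoforms, at 9.65, 7.94 and 7.51 CPM per kb. Pcdha3 stood at 21.02, 18.3 and 20.3 CPM in control, 18.1, 17.2 and 18.7 CPM in PA and 23.3, 21.1 and 18.6 CPM in PA + PS2. Pcdha5 stood at 19.4, 18.1 and 16.2 CPM in control, 18.7, 16.1 and 16.8 CPM in PA and 18.8, 16.8 and 17.6 CPM in PA + PS2. In both genes the ranges of control and PA + PS2 overlapped. Pcdha2, Pcdha6, Pcdha7, Pcdha9 and the tested Pcdha11 gene lay between 3.91 and 5.76 CPM per kb. Pcdha1, at 1.23, and Pcdha8, at 0.576, were below them, with free exon lengths of 2489 and 2478 bp. Pcdha8 and Pcdhac1 each had 304 counts over the 9 libraries, which limits the precision of both.

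On the free exon length, the beta cluster was the most even for its number of members. On the total exon length, gamma was about as even. Pcdhb17 led with 9.07 CPM per kb, and Pcdhb20, Pcdhb7 and Pcdhb16 followed at 7.14, 6.94 and 6.14. Pcdhb17 stood at 39.9, 41.8 and 50.8 CPM in control, 41.7, 40.9 and 43.4 CPM in PA and 36.6, 42.2 and 43.1 CPM in PA + PS2. Pcdhb20 stood at 20.4, 26.1 and 28.9 CPM in control, 23.0, 27.2 and 26.4 CPM in PA and 26.4, 23.7 and 26.8 CPM in PA + PS2. For both, control repeat 3 was the highest of the 9 values and the groups overlapped. Leaving Pcdhb1 aside, the lowest were Pcdhb14 at 1.13, Pcdhb13 at 1.74 and Pcdhb12 at 1.78 CPM per kb.

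The gamma cluster had the highest member of all. Pcdhgc3, a C-type isoform that is known to promote dendrite branching and to interact with the Wnt pathway protein Axin1, stood at 35.0 CPM per kb and made up 19.4% to 23.1% of the gamma level in each library. Its libraries read 75.4, 57.8 and 59.1 CPM in control, 77.03, 52.6 and 62.6 CPM in PA and 64.5, 59.3 and 65.9 CPM in PA + PS2. Repeat 1 was high in control and in PA, and not in PA + PS2. With the total exon length in place of the free length, Pcdhgc3 was at 11.6 and Pcdhac2 at 8.67 CPM per kb, and both still led their clusters.

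Pcdhgc4, the gamma isoform known to be needed for the survival of cortical interneurons, stood at 10.5 CPM per kb. It read 38.7, 34.0 and 33.3 CPM in control, 47.5, 28.5 and 35.5 CPM in PA and 37.0, 35.6 and 37.2 CPM in PA + PS2, so PA repeats 1 and 2 were its highest and lowest libraries. Pcdhgc5, the third gamma C-type isoform, was the lowest tested gamma member at 1.19 CPM per kb. It read 4.88, 5.47 and 6.30 CPM in control, 6.07, 7.11 and 4.81 CPM in PA and 4.997, 4.62 and 4.90 CPM in PA + PS2. The 5 C-type members thus ran from 0.561 to 35.0 CPM per kb, with Pcdhac2, Pcdhgc3 and Pcdhgc4 high and Pcdhac1 and Pcdhgc5 low.

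Pcdhgb7, Pcdhga11 and Pcdhgb6 followed Pcdhgc3 at 14.5, 12.7 and 11.1 CPM per kb. Pcdhgb7 stood at 27.0, 22.1 and 27.8 CPM in control, 30.5, 26.2 and 24.0 CPM in PA and 27.8, 27.2 and 25.1 CPM in PA + PS2. Pcdhga11 stood at 17.2, 15.7 and 15.6 CPM in control, 19.8, 13.3 and 13.7 CPM in PA and 17.2, 15.2 and 16.3 CPM in PA + PS2. The groups of both genes overlapped. Gm26672 runs opposite to both, covering 771 bp of Pcdhgb7 and 1381 bp of Pcdhga11, and on the total exon length they stood at 5.60 and 3.36 CPM per kb, below the 6.10 of Pcdhgb6 and the 6.50 of Pcdhgc4. Their rank in the gamma cluster therefore depends on the length used.

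**Figure D2:**
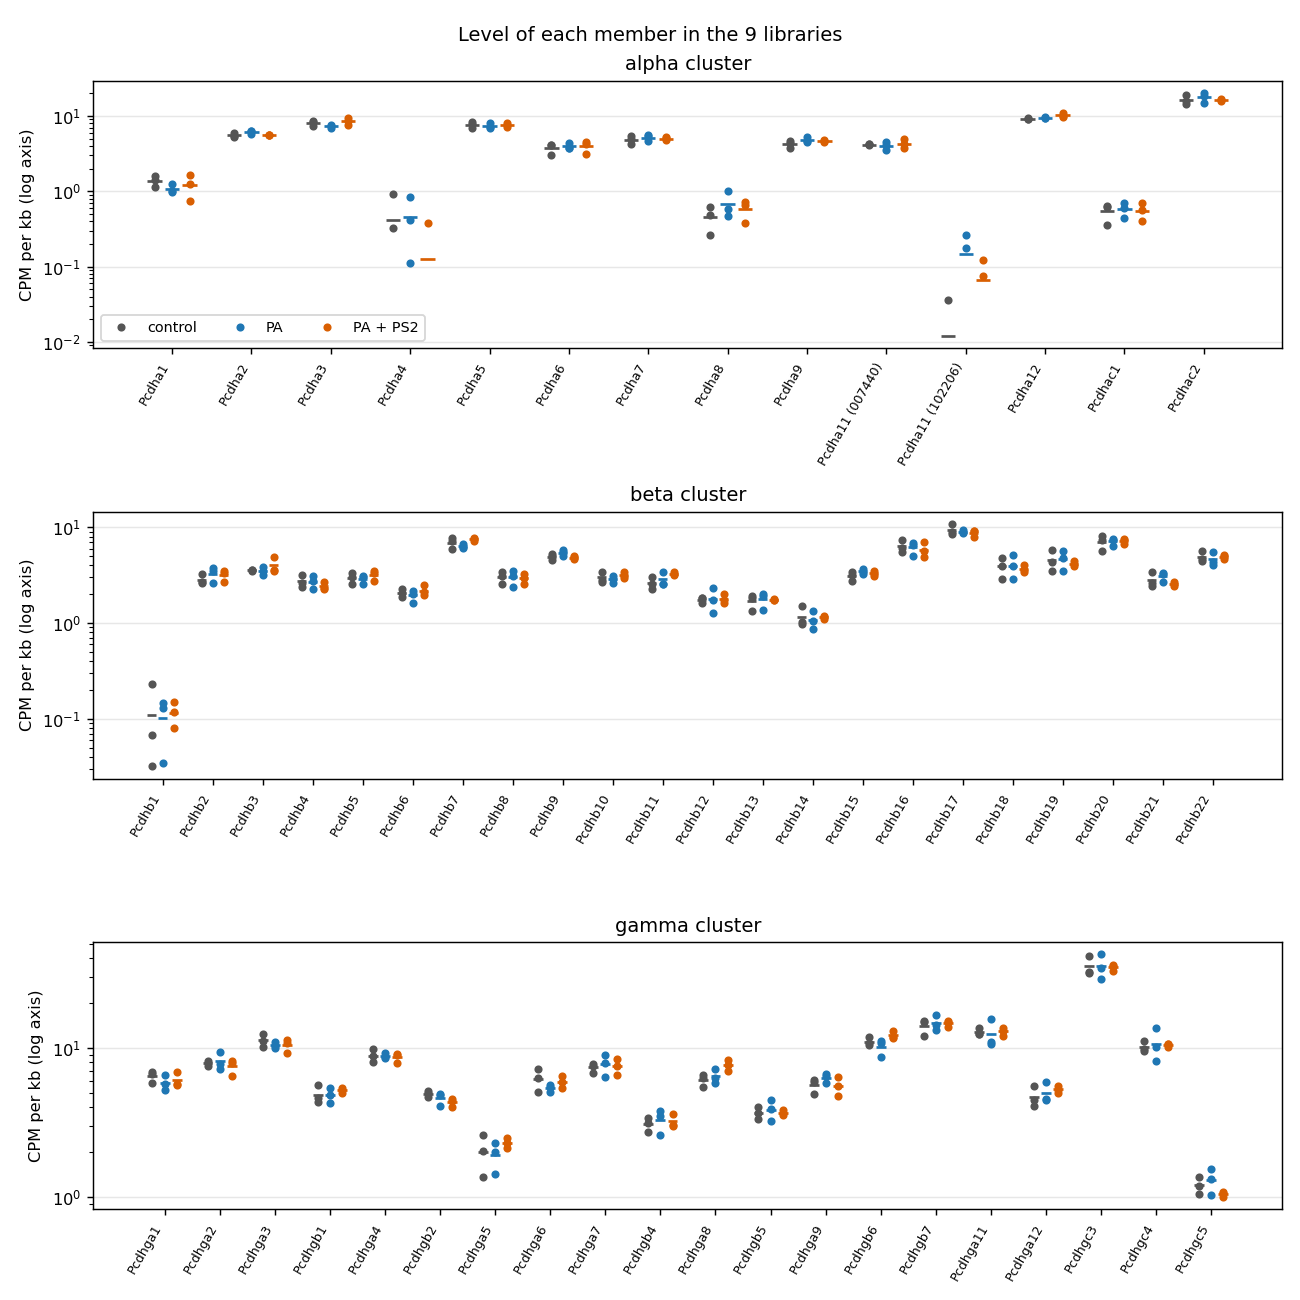
Level of the 56 members with free exon sequence, in CPM per kb on a log axis, in chromosome order. Points are libraries, colours the 3 groups and short lines group means (n = 3), and libraries at 0 are not drawn. Pcdhac2, Pcdhb17 and Pcdhgc3 are the highest of their clusters, and the colours of each member lie close together except where counts were few, as in Pcdha4, the lower Pcdha11 gene and Pcdhb1.

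The order of levels within a cluster was nearly the same in the 3 groups. As a description across genes measured in the same libraries, Spearman's rho between the group means per kb was 0.991 to 0.996 over the 14 alpha members, 0.963 to 0.981 over the 22 beta members and 0.973 to 0.985 over the 20 gamma members with a length. Position along the chromosome went with level only loosely, with rho of 0.051, 0.37 and 0.15 in the alpha, beta and gamma clusters. The evenness of use was expressed as an effective number, the number of equally used members that would give the same Shannon entropy of shares. It was 9.13 ± 0.60 in control, 9.19 ± 0.45 in PA and 9.09 ± 0.20 in PA + PS2 (SD, n = 3) for the 14 alpha members. For beta it was 18.5 ± 0.071, 18.7 ± 0.16 and 18.8 ± 0.14 of 22, and for gamma 15.4 ± 0.51, 15.4 ± 0.49 and 15.5 ± 0.27 of 20. Group means differed by less than 1 SD within alpha and gamma, and the beta means of PA and PA + PS2 lay above that of control by more than the SD of control.

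Summed over their members, the clusters were at the same level in the 3 groups within their spread. The alpha sum was 164 ± 10.6 CPM in control, 170 ± 10.2 in PA and 168 ± 1.48 in PA + PS2 (SD, n = 3). The beta sum was 345 ± 45.3, 343 ± 36.9 and 342 ± 20.0 CPM. The gamma sum was 404 ± 20.4, 405 ± 48.1 and 409 ± 14.8 CPM. Single libraries overlapped between all groups in each cluster, and the libraries of PA + PS2 lay closest together.

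**Figure D3:**
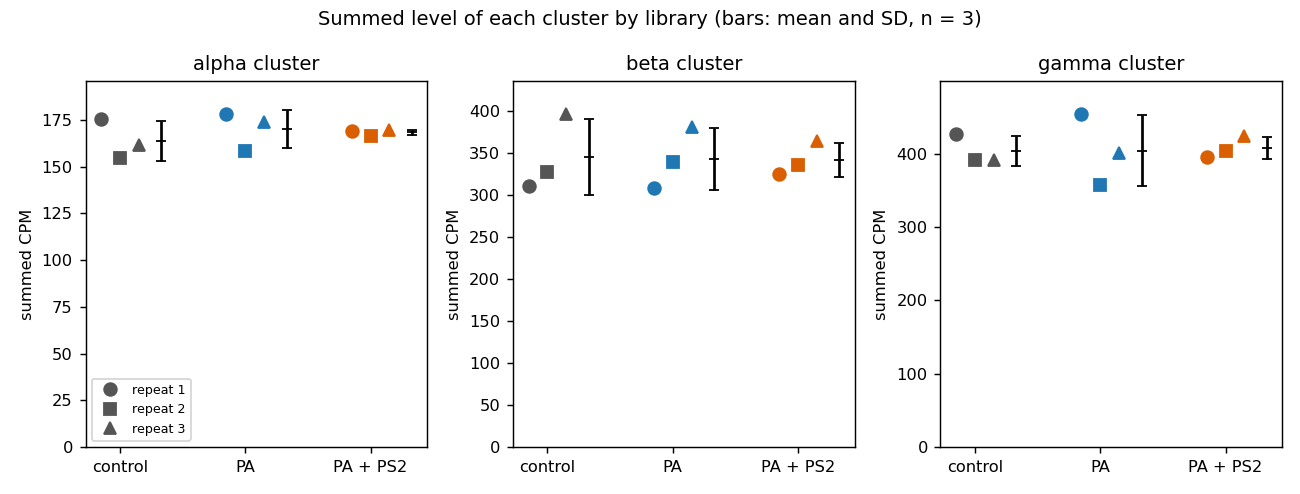
Summed CPM of each cluster in each library, with the mean and SD of each group (n = 3); marker shapes are repeat numbers. The group means lie at 164 to 170 CPM for alpha, 342 to 345 for beta and 404 to 409 for gamma, and within each group the beta sum is lowest in repeat 1 and highest in repeat 3.

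The first comparison, PA against control, asks how the libraries titled PA differed from those titled control, which carry the name PDL. No difference was detected in any member, as 0 of 53 passed edgeR's quasi-likelihood test at an adjusted p under 0.05, where 0% of all 15712 genes passed. At an unadjusted p under 0.05 edgeR had 0 members, beside 192 of all genes. DESeq2 also called 0 members, with 0 at an unadjusted p under 0.05. With the repeat number as a block the count was 0 as well, against 0% of all genes. The log2 fold changes ran from -0.34 to 0.60 with a median of 0.018, beside a median of -0.0084 over all genes, and 28 members were above 0 and 25 below. By cluster the medians were 0.094 in alpha, -0.0087 in beta and 0.023 in gamma. The 95% interval of the log2 fold change lay within ±1 for 52 of the 53 members and within a 1.5-fold change either way for 47, so a change of 2-fold lies outside the interval of every tested member except Pcdha8.

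The members nearest to a difference in PA against control were low or small in size. Pcdha8, one of the least expressed alpha isoforms, read 0.657, 1.52 and 1.20 CPM in control and 1.17, 2.51 and 1.43 CPM in PA. Its log2 fold change was 0.60 ± 0.41 (SE), with a 95% interval from -0.31 to 1.51 and an adjusted p of 1.00 by edgeR. Pcdha9 read 11.5, 9.38 and 10.7 against 11.3, 11.5 and 13.2 CPM (0.19 ± 0.14), and Pcdha2 read 15.1, 13.1 and 13.5 against 15.6, 14.6 and 15.9 CPM (0.14 ± 0.12). In the beta cluster, Pcdhb2 stood at 7.63, 7.34 and 9.11 CPM in control and 9.84, 7.36 and 10.5 CPM in PA (0.20 ± 0.18), Pcdhb9 at 14.0, 15.3 and 16.0 against 16.9, 15.2 and 17.8 CPM (0.14 ± 0.12), and Pcdhb15 at 8.87, 7.64 and 9.61 against 10.4, 9.62 and 9.12 CPM (0.16 ± 0.15). In the gamma cluster, Pcdhga6 read 16.5, 13.3 and 19.0 against 14.4, 13.3 and 14.8 CPM (-0.20 ± 0.15), Pcdhga9 read 17.2, 20.4 and 21.2 against 23.2, 20.2 and 22.6 CPM (0.17 ± 0.14), and Pcdhga1 read 19.7, 19.1 and 16.6 against 16.3, 14.8 and 18.8 CPM (-0.15 ± 0.14). The groups overlapped in these 9 genes, and their adjusted p by edgeR was 1.00. Groups without overlap were seen in 1 member, Pcdha12, higher in PA, beside 1.95% of all genes higher and 2.07% lower.

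The second comparison, PA + PS2 against control, sets the libraries titled PA + PS2 against those titled control, which carry the name PDL. Again 0 of 53 members passed by edgeR, beside 0.0446% of all genes (7 genes), and by DESeq2 0 passed. At an unadjusted p under 0.05, edgeR had 1 member, beside 884 of all 15712 genes, and DESeq2 had 1 member. Under the repeat block 0 members passed, whereas 1.17% of all genes (184 genes) did. The members' log2 fold changes ran from -0.20 to 0.37 with a median of 0.024, beside -0.00073 over all genes, with 31 above 0 and 22 below. The cluster medians were 0.048 in alpha, 0.024 in beta and 0.0056 in gamma. The 95% interval lay within ±1 for 52 members and within 1.5-fold either way for 45.

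The member with the smallest p in this comparison was Pcdhga8. It read 13.1, 13.7 and 11.4 CPM in control and 14.6, 15.9 and 17.4 CPM in PA + PS2, a log2 fold change of 0.33 ± 0.14 (SE) with an adjusted p of 0.75 by edgeR. All 3 PA + PS2 libraries were above all 3 controls. Groups without overlap were seen in 3 members that were higher in PA + PS2, beside 5.4% of all genes, and in 1 that was lower, beside 6.54%. Besides Pcdhga8, the higher ones were Pcdhb11, at 10.1, 11.4 and 13.4 against 14.1, 15.1 and 14.4 CPM (0.33 ± 0.16, adjusted p 0.96), and Pcdha12, described below. The lower one was Pcdhgb2, at 13.0, 13.9 and 14.2 against 12.3, 11.2 and 12.7 CPM (-0.18 ± 0.13). The share of higher members, 5.66%, is near that of all genes. Pcdhb11 is the member whose first exon is 87.2% identical to that of Pcdhb12, which read 2.01, 2.04 and 1.79 CPM in control and 1.92, 2.23 and 1.79 CPM in PA + PS2, with overlapping groups.

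The other members with small p in PA + PS2 against control had groups that overlapped. Pcdhb3 read 13.3, 13.6 and 13.5 CPM in control and 13.4, 13.7 and 18.7 CPM in PA + PS2 (0.18 ± 0.15), a difference that rests on PA + PS2 repeat 3 and fell to 0.010 without it. Pcdhb17, the leading beta member, had a log2 fold change of -0.12 ± 0.12, which became -0.0059 without control repeat 3. Pcdhgb6 read 30.4, 27.0 and 27.5 CPM in control and 30.3, 30.1 and 33.5 CPM in PA + PS2 (0.14 ± 0.12). Pcdha9, at 11.6, 11.3 and 11.8 CPM in PA + PS2, and Pcdha8, at 1.63, 1.77 and 0.956 CPM, had log2 fold changes of 0.14 ± 0.14 and 0.37 ± 0.42 against control. Adjusted p by edgeR was 1.00 for each of these 5 genes.

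The third comparison, PA + PS2 against PA, asks how cells with the amphiphile and PS2 differed from those with the amphiphile alone. By edgeR 0 of 53 members passed, beside 0% of all genes. At an unadjusted p under 0.05 edgeR had 0 members, beside 881 of all 15712 genes. DESeq2 called 0, also with 0 under 0.05 unadjusted. Under the repeat block 0 members passed, beside 0.363% of all genes (57 genes). The log2 fold changes of the members ran from -0.31 to 0.27 with a median of -0.010, beside 0.0055 over all genes. The cluster medians were -0.022 in alpha, -0.0061 in beta and -0.015 in gamma. The interval lay within ±1 for 52 members and within 1.5-fold for 46.

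Here Pcdhgb6 had the smallest p. It stood at 27.8, 22.3 and 28.5 CPM in PA and 30.3, 30.1 and 33.5 CPM in PA + PS2, a log2 fold change of 0.26 ± 0.12 (SE) with an adjusted p of 0.91 by edgeR. Pcdhb7 stood at 21.4, 21.7 and 23.7 CPM in PA and 26.7, 25.1 and 27.0 CPM in PA + PS2 (0.24 ± 0.12, adjusted p 1.00). Its control libraries read 25.0, 20.6 and 27.3 CPM, spanning both other groups. Pcdha12, Pcdhb7 and Pcdhgb6 were the 3 members higher without overlap, beside 3.35% of all genes. Pcdha2, at 14.0, 13.8 and 14.1 CPM in PA + PS2, and Pcdhb21, at 11.4, 14.0 and 14.3 CPM in PA and 10.9, 10.3 and 11.3 CPM in PA + PS2, were the 2 lower ones, beside 6.32%. Their log2 fold changes were -0.14 ± 0.12 and -0.29 ± 0.16.

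Among the other members with small p in this comparison, Pcdha3 had a log2 fold change of 0.22 ± 0.12, Pcdhb9 (15.04, 14.1 and 15.2 CPM in PA + PS2) one of -0.17 ± 0.12 and Pcdhga8 (15.1, 12.3 and 13.2 CPM in PA) one of 0.24 ± 0.14. The C-type isoforms Pcdhac2 and Pcdhgc5 had values of -0.14 ± 0.13 and -0.31 ± 0.20. The value of Pcdhac2 became -0.043 without PA repeat 1. All 5 genes overlapped between the groups and had an adjusted p of 1.00 by edgeR.

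Pcdha12, the highest alternate alpha isoform, was the member whose 3 groups did not overlap in any comparison. It read 17.9, 18.1 and 17.7 CPM in control, 18.5, 18.6 and 18.4 CPM in PA and 18.8, 19.6 and 21.2 CPM in PA + PS2. The step was small, a log2 fold change of 0.049 ± 0.11 for PA and 0.15 ± 0.11 for PA + PS2 against control, and 0.10 ± 0.11 for PA + PS2 against PA. None of these passed, with adjusted p of 1.00 by edgeR. The spread within its control and PA groups was less than the model's standard error, so the order of the groups rests on differences of under 1 CPM between single libraries. The comparisons share libraries, so the 3 values are not independent.

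**Figure D4:**
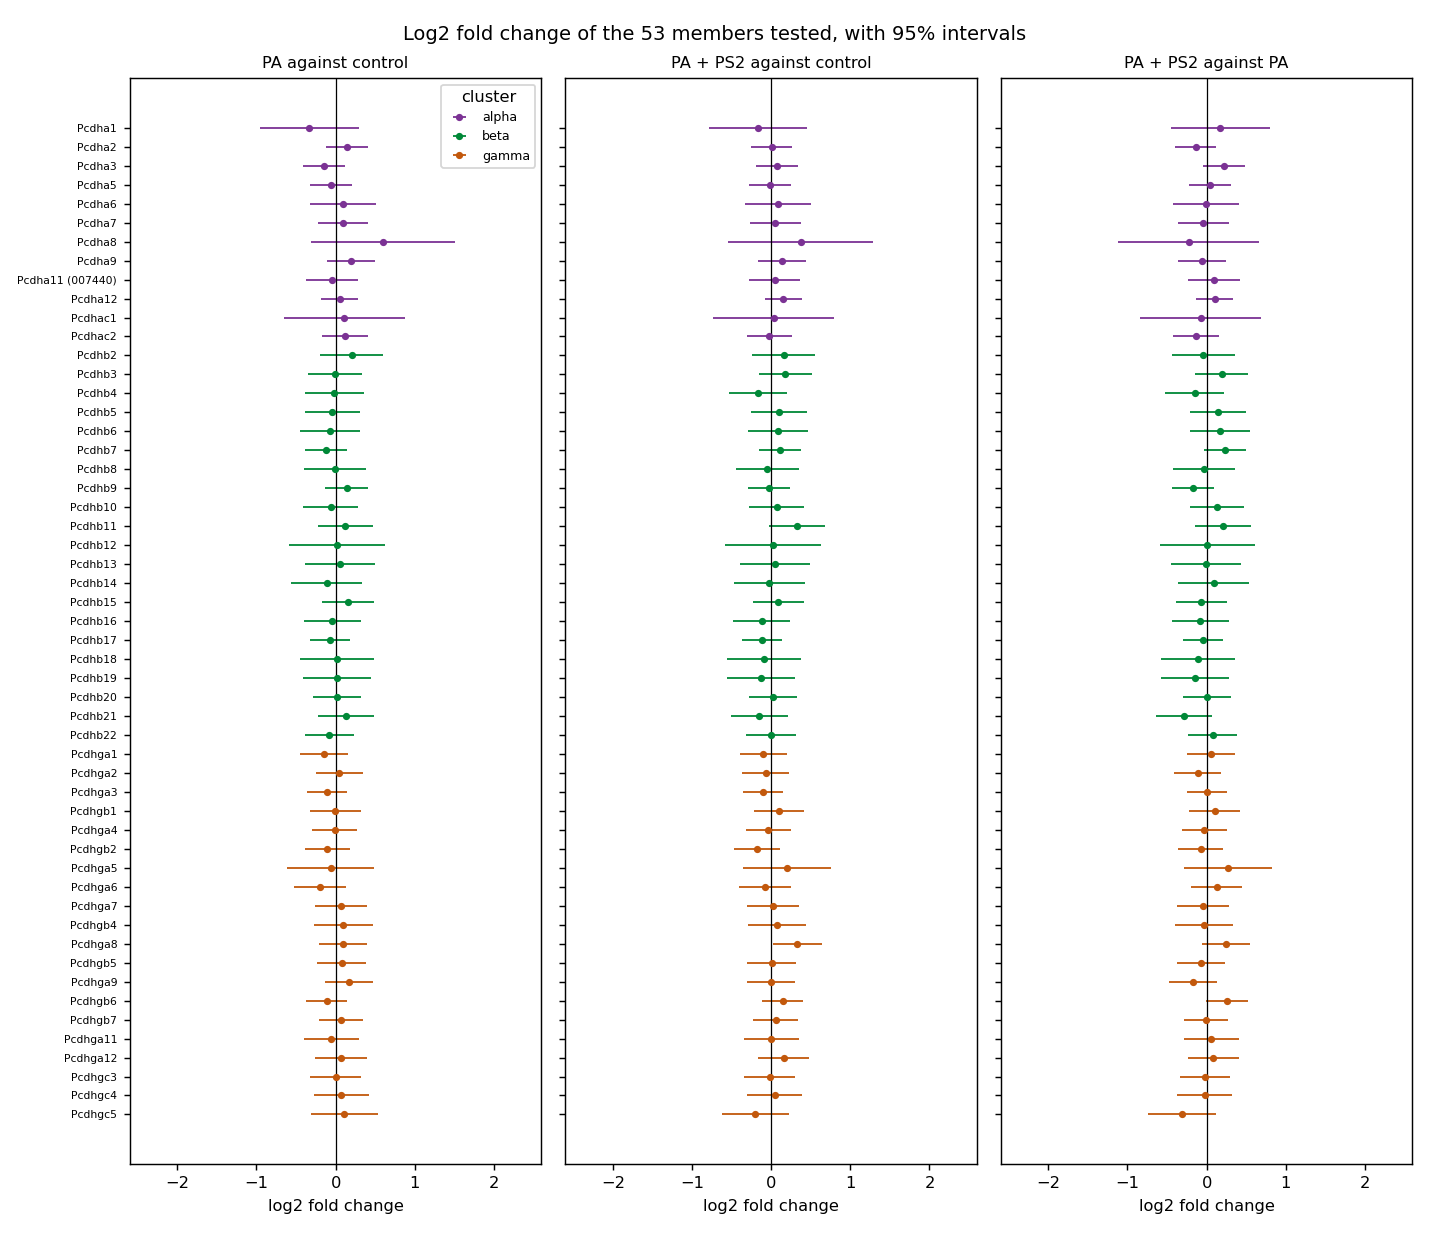
Log2 fold change of the 53 tested members in the 3 comparisons, with 95% intervals from the fit to all 9 libraries; colours are clusters. Points lie between -0.34 and 0.60, intervals cross 0 except that of Pcdhga8 in PA + PS2 against control, and the widest interval is that of Pcdha8.

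The members varied no more between libraries than genes at large. Their median coefficient of biological variation was 13.7%, beside 15.3% over all genes tested, at median levels of 14.1 and 17.6 CPM. The median absolute log2 fold change of the members was 0.078, 0.088 and 0.088 in the 3 comparisons in the order given, beside 0.096, 0.10 and 0.12 over all genes.

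The beta cluster differed between repeats 3 and 1 more than between groups, and so did genes at large. Of all genes, 768 were higher and 400 lower in repeat 3, from a fit that held both group and repeat. In the 3 group comparisons, 0, 184 and 57 genes passed with the repeat block and 0, 7 and 0 without it. The comparison of repeats was made after the values by library had been seen, with the group as a term in the model. The labels do not say what the repeat numbers mark. In repeat 3 against repeat 1, 3 members were higher, all of them beta: Pcdhb16, Pcdhb18 and Pcdhb19. They are 5.66% of the 53 members, beside 4.89% of all genes, so the share over all members was near the background. No member was lower, beside 2.55% of all genes. The 3 genes are neighbours on the chromosome, with Pcdhb17 among them.

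Pcdhb18 read 14.7, 14.6 and 17.1 CPM in repeat 1 of control, PA and PA + PS2, and 24.4, 25.7 and 20.4 CPM in repeat 3. The log2 difference was 0.60 ± 0.12 (SE), with an adjusted p of 0.027 by edgeR. Pcdhb19 read 25.2, 24.9 and 28.3 CPM in repeat 1 and 41.9, 40.2 and 31.8 CPM in repeat 3 (0.53 ± 0.11, adjusted p 0.030), and Pcdhb16 read 29.3, 26.5 and 25.8 CPM and 38.9, 36.1 and 36.6 CPM (0.45 ± 0.091, adjusted p 0.027). All 3 repeat 3 libraries were above all 3 of repeat 1 in each gene. The genes were picked by the test on these same libraries, so this separation adds no support. In Pcdhb18 and Pcdhb19 the step was smaller in PA + PS2. In repeat 2 of control, PA and PA + PS2, Pcdhb18 read 20.2, 19.7 and 18.1 CPM, Pcdhb19 31.2, 34.2 and 29.8 CPM and Pcdhb16 31.7, 34.5 and 29.5 CPM, between the other repeats of the same group. Pcdhb17, in their midst, had a difference of 0.21 ± 0.090 that did not pass (adjusted p 0.15).

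Across the beta cluster, 16 of 21 tested members were higher in repeat 3 than in repeat 1 in each of the 3 groups, beside 22.7% of all genes, and 0 were lower in each, beside 22.2%. The median log2 difference was 0.24 in beta, 0.0069 in alpha and -0.011 in gamma, beside -0.016 over all genes. In alpha 1 of 12 members was higher in each group, and 1, Pcdha5, was lower. In gamma 1 of 20 was higher, and 2, Pcdhga11 and Pcdhga12, were lower. The beta sums read 311, 308 and 326 CPM in repeat 1 of control, PA and PA + PS2 and 396, 382 and 364 CPM in repeat 3. The sums of the 8 astrocyte markers moved the same way, from 172, 230 and 177 to 289, 266 and 216 CPM, and those of the 8 neuron markers from 6792, 7244 and 6741 to 7012, 7456 and 7473 CPM. The 7 progenitor and dividing cell markers also summed to more in repeat 3 in each group, from 159, 205 and 128 to 323, 231 and 152 CPM. The sums of the other marker lists did not rise in each group. Excitatory neuron markers fell only in control (1482 to 1417 CPM) and GABAergic ones only in PA (971 to 916 CPM). Fibroblast and mural cell markers went from 130, 102 and 52.6 to 148, 82.0 and 11.5 CPM. Within the astrocyte list, only Slc1a2 and Slc1a3 clearly rose in each group. Aqp4, Gfap, Aldh1l1, Aldoc and Sox9 rose in control and PA + PS2 but fell in PA. Gja1 rose in control, was level in PA (10.2 CPM in both repeats) and fell in PA + PS2. Within the neuron list, Map2, Syt1 and Elavl4 rose in each group, and Snap25 in control and PA. Tubb3, Rbfox3, Stmn2 and Nefm fell in control and PA. The part of these markers in the result was not tested.

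Single libraries decided these calls. The 3 beta members were called with DESeq2 and without the filter on low counts as well. Without control repeat 1, control repeat 2, control repeat 3 or PA repeat 3, 0 members passed, and in these fits 0 of all genes passed too. Without PA + PS2 repeat 1, 8 passed: Pcdhb14, Pcdhb16, Pcdhb18, Pcdhb19, Pcdhb20, Pcdhb22, Pcdhga12 and Pcdhgc3. In the 9-library fit the beta genes among them were higher in repeat 3. Pcdhga12 and Pcdhgc3 were lower there, with log2 differences of -0.30 and -0.21. The 8 are 15.1% of the 53 members, beside 17.1% of all 16198 genes tested in the fit without PA + PS2 repeat 1, so the share was near the background. The log2 difference of Pcdhb18 stayed between 0.52 and 0.76 over the 9 fits that each left out a library, that of Pcdhb19 between 0.44 and 0.68 and that of Pcdhb16 between 0.42 and 0.50.

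**Figure D5:**
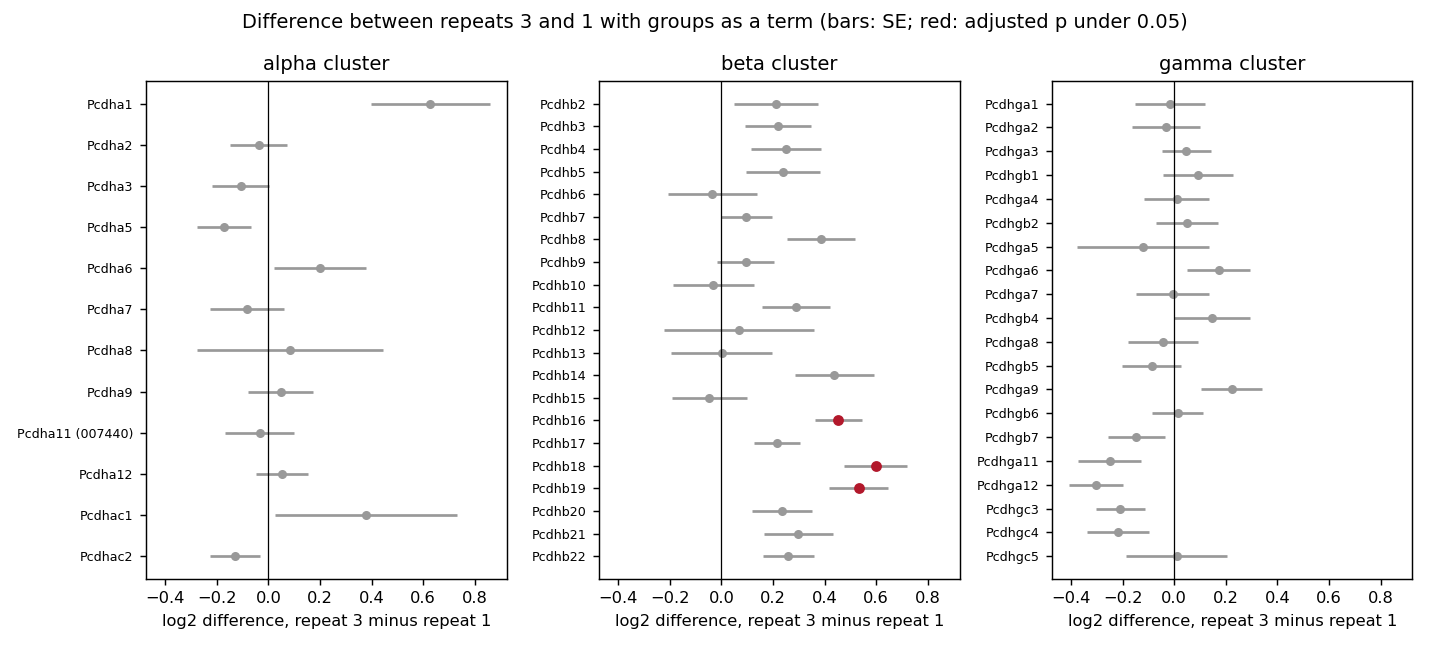
Log2 difference of each tested member between repeat 3 and repeat 1, with the group as a term in the fit; bars are standard errors and red points passed an adjusted p of 0.05. Most beta members lie right of 0 and Pcdhb16, Pcdhb18 and Pcdhb19 are red, while alpha and gamma members lie on both sides.

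Between the other repeats no member passed in the 9-library fit. In repeat 2 against repeat 1, 0 of 53 passed by edgeR, beside 0.0127% of all genes higher and 0.0127% lower. At an unadjusted p under 0.05 edgeR had 10 members, but the share of all genes at that threshold is not given, so the count has nothing to be set against. DESeq2 called 1 member, Pcdhgc3, whose edgeR difference was -0.35 ± 0.095 with an adjusted p of 0.13. The share of all genes that DESeq2 called in this comparison is not given either, so this call cannot be set against a background. The other high C-type isoforms, Pcdhac2 and Pcdhgc4, read -0.28 ± 0.097 and -0.33 ± 0.12, adjusted p 0.16 and 0.17. Without PA + PS2 repeat 1, 7 members passed, among them these 3, which is 13.2% of the members beside 17.3% of all genes in that fit. In repeat 3 against repeat 2, 0 passed by edgeR, beside 0.0318% of all genes higher and 0.146% lower, and 0 passed by DESeq2. At an unadjusted p under 0.05, edgeR had 5 members and DESeq2 4, again without a share of all genes to set beside them.

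The genes around and behind the clusters were looked at through 7 lists. The 20 regulators of looping and silencing, such as cohesin subunits and DNA methyltransferases, had 0 members that passed in any comparison. Those with the smallest p in PA + PS2 against control were the cohesin subunits Smc1a, with a log2 fold change of -0.090 ± 0.086, and Rad21, with -0.088 ± 0.087. In PA + PS2 against PA they were the DNA methyltransferases Dnmt3a, with -0.15 ± 0.089, and Dnmt1, with -0.14 ± 0.096. The 19 intracellular partners and WAVE complex genes also had 0 that passed. Among them Wasf2, a WAVE actin regulator, read 21.4 ± 2.39 CPM in PA + PS2 and 28.2 ± 4.10 in control (SD, n = 3), a log2 fold change of -0.40 ± 0.13 with an adjusted p of 0.43 by edgeR. Ptk2b, the Pyk2 kinase that clustered protocadherins bind and inhibit, read 8.33 ± 0.877 and 5.36 ± 1.84 CPM (0.63 ± 0.28, adjusted p 0.84). The 8 genes for shedding proteases, which cut protocadherins at the membrane, had 0 that passed, and Adam10 had a value of 0.17 ± 0.16 in PA + PS2 against PA.

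Other cadherin families had 0 genes that passed in any comparison. Of 11 tested nonclustered protocadherins, which lack the cluster's promoter choice, 11 were below 0 in PA + PS2 against control, with a median of -0.16, beside -0.00073 over all genes. Pcdh18 read 27.0 ± 1.94 CPM in PA + PS2 and 33.5 ± 3.05 in control (-0.31 ± 0.11, adjusted p 0.49 by edgeR), and Pcdh15 read 8.31 ± 0.998 and 11.3 ± 0.927 CPM (-0.45 ± 0.16, adjusted p 0.55). Of the 8 tested Fat, Dachsous and Celsr cadherins, 8 were above 0 in PA against control (median 0.16), 6 were below 0 in PA + PS2 against control (median -0.10) and 8 were below 0 in PA + PS2 against PA (median -0.24). These comparisons share libraries. Fat1, a giant cadherin, read 238 ± 18.6 CPM in PA + PS2 and 339 ± 28.8 in PA (-0.51 ± 0.12, adjusted p 0.29), and Celsr1, a planar polarity cadherin, read 17.9 ± 4.66 and 31.6 ± 4.65 CPM (-0.82 ± 0.19, adjusted p 0.29). The sums of progenitor and fibroblast markers given above were lower in PA + PS2 as well; their part in these values was not tested. The 14 classical cadherins and 14 other homophilic recognition molecules had medians between -0.047 and 0.011 in the 3 comparisons. In the latter list the smallest p was that of the synaptic adhesion gene Sdk2, with a log2 fold change of -0.36 ± 0.10 in PA + PS2 against PA (adjusted p 0.37 by edgeR), and the contactin gene Cntn6 had one of 0.50 ± 0.19 (adjusted p 0.67).

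Genes next to or inside the locus did not pass either. Taf7, a transcription factor subunit gene between the beta and gamma clusters, read 22.4 ± 0.647 CPM in PA + PS2 and 19.2 ± 1.74 in control (SD, n = 3), a log2 fold change of 0.22 ± 0.11 with an adjusted p of 1.00 by edgeR. Zmat2, beside the alpha cluster, read 153 ± 13.3 and 136 ± 1.31 CPM (0.17 ± 0.11, adjusted p 1.00). Diaph1 and Hdac3, beyond the gamma cluster, averaged 95.3 and 100.1 CPM over the 9 libraries.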

How the data were processed

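RNA was sequenced from 9 libraries (3 control, 3 PA, 3 PA + PS2). The authors deposited 1 table of whole-number read counts for each library. Per the submitters' processing notes, tools used were HTSeq 2.0.2, STAR 2.7.5, cutadapt 4.2 and, separately, DESeq2 1.14.1, on build mm10. Strand and annotation settings are not given in the sources used here, and the labels name both polyA RNA and a total RNA kit. GENCODE M21 matched 54165 of 54232 identifiers. The main test was the 2-sided quasi-likelihood F test of edgeR 4.0.16 (R 4.3.3) over all 9 libraries, with trimmed-mean (TMM) scaling and filterByExpr (minimum count 10, minimum total 15), which kept 15712 genes; p-values were adjusted by Benjamini-Hochberg over all of them, and an adjusted p under 0.05 passed. Each standard error is the size of the log2 fold change divided by the root of its F statistic. CPM used the same scaling. DESeq2 1.42.0 was an alternative, with no filter, only the 2 groups compared, a repeat block and each library left out. First exons were aligned with Biopython 1.88. The test was tested on simulated data.

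Members and gene lists were chosen with earlier results of these data known. Named were the 5 C-type members, the 4 members of each cluster with the highest CPM per kb, the 3 of each cluster with the smallest p in each comparison, and up to 2 genes per list with the smallest p. Members named outside this rule (Pcdhb12 beside Pcdhb11, the low and untested members, and those of the repeat comparison) and the neighbours Diaph1 and Hdac3 were picked with their values in view. The repeat numbers were checked as pairs from the correlation of deviations from group means: 0.42, 0.37 and 0.28 for PA and control, 0.18, 0.22 and 0.13 for PA + PS2 and control, 0.015, 0.29 and 0.30 for PA + PS2 and PA. Between unlike numbers they ran from -0.32 to 0.016, -0.19 to 0.0084 and -0.36 to 0.14. For PA + PS2 and PA, the 0.015 of repeat 1 was thus below some values of unlike numbers, and repeat 1 did not show as a pair there. Any pairing comes from the data alone, as no label explains the repeat numbers.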

Additional observations from a re-analysis of the deposited data

How the results depend on the processing

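In the 3 group comparisons 0 members passed under each alternative run. The repeat block changed no call of a member; over all genes it gave 0 for PA against control, 184 against 7 for PA + PS2 against control and 57 against 0 for PA + PS2 against PA. The counts over all genes for these comparisons, in that order, were 0, 208 and 121 with DESeq2, 23, 365 and 330 without the filter, 0, 28 and 0 with only the groups compared, and 0, 0 to 175 and 0 to 37 with a library left out. The median log2 fold change of the alpha cluster ranged from 0.028 to 0.10, 0.037 to 0.085 and -0.050 to 0.029 with a library left out. With the total exon length, the effective number was 8.67, 8.64 and 8.74 for alpha, 18.2, 18.3 and 18.4 for beta and 17.0, 17.0 and 17.0 for gamma (control, PA and PA + PS2). Relative to its number of members, gamma was then about as even as beta. Between repeats, chosen after seeing the data, members passing with a library left out ranged from 0 to 7 (repeat 2 against 1) and 0 to 8 (repeat 3 against 1), and 1 passed in repeat 2 against 1 with DESeq2 and 1 without the filter. For repeat 2 against 1, counts over all genes with DESeq2 or without the filter are not given here. Over all genes, repeat 3 against repeat 1 gave 1168 genes in the 9-library fit, 1767 with DESeq2, 1980 without the filter and 0 to 2763 with a library left out. Pcdha4, Pcdha8, Pcdhac1 and Pcdhb1 are limited by few counts, and alpha and gamma members by shared exons.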
